A study of Tupaia belangeri with 8 samples.

Results

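The miR-99 and miR-125 families were followed through 4 of the 384 miRNAs in the deposited table, tch-miR-99a-5p, tch-miR-99b-5p, tch-miR-125a-5p and tch-miR-125b-5p, chosen by name and read in all 8 libraries. Small RNA had been sequenced from primary brain cells of neonatal tree shrews (Tupaia belangeri), a small mammal close to primates, labelled as primary neurons. The 4 PBS libraries came from wells given complete medium alone after a PBS rinse, and the 4 METH libraries from wells given 995 µl of medium and 5 µl of a methamphetamine stock written as 100 mmol in the labels. Methamphetamine is a psychostimulant that makes dopamine neurons release dopamine. The complete medium was Neurobasal-A with B-27 and 15% fetal bovine serum, and cells of both groups were collected after 24 h. The sources used here give no strain or sex, and do not tie the libraries to different animals or cultures. The p-values therefore measure the spread between 4 libraries a group, which may be technical.

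In mammals, miR-99 and miR-125 genes lie together in clusters, with a let-7 gene between them, that arose by duplication. A miR-99b, let-7e and miR-125a cluster forms the compact copy. The miR-99a and miR-100 clusters each carry a miR-125b gene, so mature miR-125b can come from more than a single locus. miR-125 is the vertebrate relative of lin-4, the developmental timing miRNA of the nematode Caenorhabditis elegans, and miR-125b is abundant in brain, where it acts in neuronal differentiation. miR-99a, miR-99b and miR-100 share a seed, the stretch that pairs with target mRNAs, and repress mTOR, a kinase that drives cell growth. let-7 miRNAs promote differentiation. The RefSeq annotation of the tree shrew (assembly TupChi_1.0) lists a gene for all 4 members. In its listing order MIR99B, MIRLET7E and MIR125A follow each other, and its only MIR125B gene is next to MIR100. MIR99A is listed between a protein-coding gene and a long noncoding RNA gene. Neighbours were read from this order alone, without a check of the distance between genes, so clustering in this genome was not tested. No MIRLET7C entry was found there, and let-7c-5p was not matched in the deposited table. Mature sequences were not used here. miR-99a, miR-99b and miR-100 are near-identical to each other in other mammals, as are miR-125a and miR-125b, so reads may have been split between them in a way the table does not show.

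The libraries held between 339243 and 7334789 miRNA reads, and the libraries numbered 4 were the deepest. In 3 libraries, PBS 1, PBS 3 and METH 3, the miRNA profile was unlike that of the remaining 5. On the first principal component of the other 157 miRNAs tested, without the members and their relatives, their scores were −14.2, −12.8 and −18.1, against 6.06 to 11.9 for the others (65.2% of the variance). Their share of miR-21-5p, an injury-induced miRNA, was 7.53%, 6.95% and 5.26%, against 33.5% to 49.3% in the others. Of the 10 listed neuron miRNAs 4 were matched, without miR-124, the defining one. Their summed TPM (reads scaled to a common library total) ran from 18608 to 91525 in PBS and from 19113 to 90354 in METH. Of 6 fibroblast and smooth muscle miRNAs 3 were matched, with sums of 16689 to 60941 in PBS and 13571 to 59377 in METH. All 3 astrocyte miRNAs listed were matched, with sums of 1261 to 2979 in PBS and 1154 to 3707 in METH. Of 2 oligodendrocyte miRNAs 1 was matched, at no more than 0.597 TPM, and of 2 endothelium miRNAs 0 were. The label of neurons could therefore be checked only in part, and miRNAs of the fibroblast and astrocyte lists were read in every library.

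The members were among the abundant miRNAs of these cells. miR-99a-5p ranked at 4 of 384 by mean TPM, miR-125b-5p at 10, miR-99b-5p at 20 and miR-125a-5p at 25. Together they took 10.2% ± 6.12 of the reads in PBS and 8.96% ± 5.75 in METH (SD, n = 4 each). PBS 1, PBS 3 and METH 3 had shares of 13.7% to 17.2%, and the other 5 libraries had 3.80% to 7.69%. The 95% Wilson intervals reached no more than 0.127 percentage points to either side. These 3 libraries thus had the highest summed share of the 4 members, in PBS and METH alike. The same held for miR-99b-5p, miR-125a-5p and miR-125b-5p singly, but not for miR-99a-5p. The share of miR-99a-5p in PBS 3 was 3.90%, below PBS 2 (4.43%), METH 1 (6.06%) and METH 2 (4.15%). It was above PBS 4 (2.35%) and METH 4 (2.31%).

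miR-99a-5p, the most abundant member, had 41677, 34483, 15131 and 172570 reads in PBS 1 to 4, against 38973, 28260, 19382 and 154554 in METH 1 to 4. On normalised CPM (counts scaled to a common total after TMM factors between libraries), its levels were 53735, 68101, 21164 and 27826 in PBS. They were 81693, 41052, 51046 and 29114 in METH. METH 1 held the highest level and PBS 3 the lowest, the groups overlapped, and the libraries that stood apart were neither all high nor all low.

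miR-99b-5p, its paralog from the compact cluster, had 5281, 3913, 7394 and 21542 reads in PBS 1 to 4, against 2453, 4047, 4671 and 14869 in METH 1 to 4. Normalised CPM were 6809, 7728, 10342 and 3474 in PBS. In METH they were 5142, 5879, 12302 and 2801. METH 3 and PBS 3 were highest and the deep libraries numbered 4 lowest. On deposited TPM, PBS 1, PBS 3 and METH 3 were at 10039, 19036 and 13769, above all others, which reached at most 5946, whereas on normalised CPM PBS 2 lay above PBS 1.

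miR-125b-5p had 36110, 5833, 25375 and 109806 reads in PBS 1 to 4, against 7125, 14366, 28780 and 74040 in METH 1 to 4. Its normalised CPM were 46557, 11520, 35492 and 17706 in PBS. In METH they were 14935, 20869, 75797 and 13947. PBS 1, PBS 3 and METH 3 were above every other library on this scale, and on TPM, where they were at 68646, 65329 and 84836 against at most 21108.

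miR-125a-5p, the least abundant member, had 6440, 1045, 5131 and 11084 reads in PBS 1 to 4, against 922, 2058, 5437 and 10919 in METH 1 to 4. Its normalised CPM were 8303, 2064, 7177 and 1787 in PBS. In METH they were 1933, 2990, 14319 and 2057. The same 3 libraries were the highest, and the level ranged 8.01-fold over the 8 libraries, against 6.58-fold for miR-125b-5p, 4.39-fold for miR-99b-5p and 3.86-fold for miR-99a-5p. On TPM these ranges were 11.9-fold, 11.3-fold, 8.58-fold and 3.44-fold, in the same order.

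**Figure D1:**
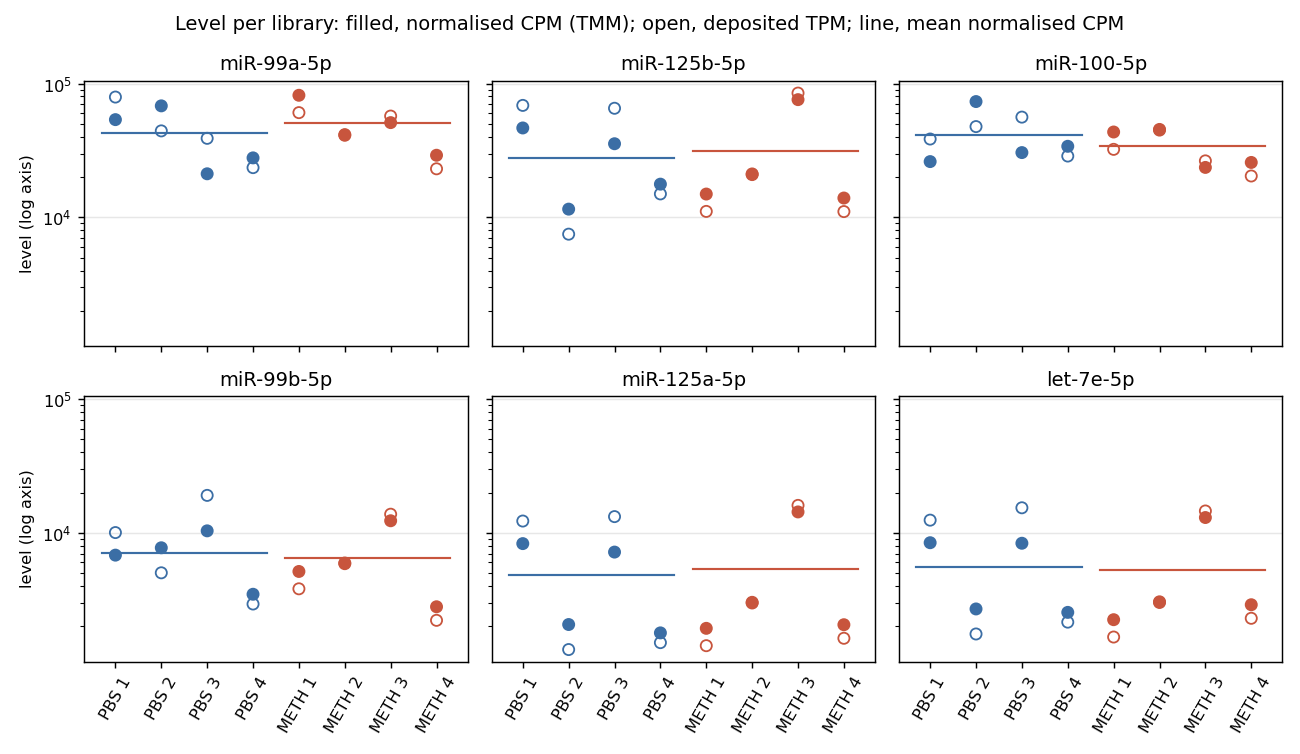
Level of the 4 members and of miR-100-5p and let-7e-5p in each library (log axis), as normalised CPM (filled points, with the mean of each group of 4 as a line) and as deposited TPM (open points); blue is PBS and red is METH. miR-125b-5p, miR-125a-5p and let-7e-5p were highest in PBS 1, PBS 3 and METH 3 on both scales, while miR-99a-5p and miR-100-5p were not.

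Some cell type markers moved with the same division of the libraries and others did not. The 3 matched leukocyte and microglia miRNAs of 5 listed summed to 7589, 7891 and 5754 TPM in PBS 1, PBS 3 and METH 3, against 558 to 4185 in the others. miR-155-5p was higher in all 3 libraries, at 3110, 4778 and 5344 TPM against 390 to 883. miR-146a-5p, at 4479, 3105 and 410 against 100 to 3390, overlapped with the others. In this list miR-142, restricted to blood-lineage cells, had 0, 3 and 0 reads in those libraries and 36 in METH 1. All 4 epithelial miRNAs were matched and summed to 549, 46.3 and 513 TPM in PBS 1, PBS 3 and METH 3, against 4.41 to 23.1 in the others, with miR-141-3p at 0 in all 3. miR-200b-3p and miR-200c-3p were higher in all 3 libraries, though from 4 and 12 reads in PBS 3. miR-200a-3p, from 2 reads in PBS 3, was at 5.15 TPM there, below PBS 2 at 15.4. Of the 3 matched fibroblast and smooth muscle miRNAs, miR-143-3p was lower in all 3 libraries, at 2787, 9065 and 1250 TPM against 18044 to 52563. miR-199b-3p, at 13849, 25593 and 12313 TPM against 8353 to 23582, and miR-10b-5p, at 53.2, 30.9 and 8.84 against 4.18 to 29.5, overlapped with the others. The 4 matched neuron miRNAs went in different directions. miR-129-5p was higher in all 3 libraries, at 5663, 2865 and 15072 TPM against 144 to 1372, and miR-218-5p was lower, at 688, 353 and 554 against 1249 to 2307. miR-9-5p, at 83062, 11977 and 71931 TPM against 15492 to 44640, and miR-128, at 2112, 4039 and 2797 against 1477 to 2625, overlapped with the others. The part of these values, and of the low miR-21-5p share, in the levels of the members was not tested.

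In bulk samples fewer cells of a type and less of a miRNA per cell cannot be told apart, and this holds for every level given here. The paralogs from different clusters were compared within each library, where the ratio of reads needs no scaling between libraries. Mature miRNAs have near-equal lengths, so a read stands for a molecule of either, although adapter joining can favour some sequences. miR-99a-5p outnumbered miR-99b-5p in 8 of 8 libraries, by a geometric mean of 6.95-fold (mean log2 ratio 2.80 ± 0.90, SD, n = 8; exact two-sided sign-flip permutation p = 0.0078, adjusted p = 0.0078 over the 2 paralog pairs). miR-125b-5p outnumbered miR-125a-5p in 8 of 8 libraries, by 6.44-fold (mean log2 ratio 2.69 ± 0.33, SD, n = 8; exact permutation p = 0.0078, adjusted p = 0.0078). This p is the smallest that sign changes over 8 libraries can give. In both families the member from the compact cluster was therefore the rarer one.

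Among the 5 libraries other than PBS 1, PBS 3 and METH 3, the mean log2 ratios were 3.26 for miR-99 and 2.86 for miR-125. There the smallest p an exact test can give is 0.0625, which was the value for both.

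The excess was steadier for miR-125 than for miR-99. The ratio of miR-125b-5p to miR-125a-5p was 5.61, 5.58, 4.95 and 9.91 in PBS 1 to 4, against 7.73, 6.98, 5.29 and 6.78 in METH 1 to 4. It ranged 2.00-fold over libraries in which the 2 miRNAs ranged 6.58-fold and 8.01-fold in normalised CPM. The ratio of miR-99a-5p to miR-99b-5p was 7.89, 8.81, 2.05 and 8.01 in PBS, and 15.9, 6.98, 4.15 and 10.4 in METH. It ranged 7.76-fold, with PBS 3 lowest and METH 1 highest.

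Put as shares, miR-99b-5p made up 32.8% of the miR-99a-5p and miR-99b-5p reads in PBS 3 (95% Wilson interval 32.2 to 33.4) and 5.92% in METH 1 (5.70 to 6.15). Its share in the other 6 libraries lay between 8.78% and 19.4%. miR-125a-5p made up between 9.17% (PBS 4, 9.01 to 9.33) and 16.8% (PBS 3, 16.4 to 17.2) of the miR-125 reads. The intervals cover counting error only, since the labels mention no molecular identifiers, and they are much narrower than the differences between libraries.

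**Figure D2:**
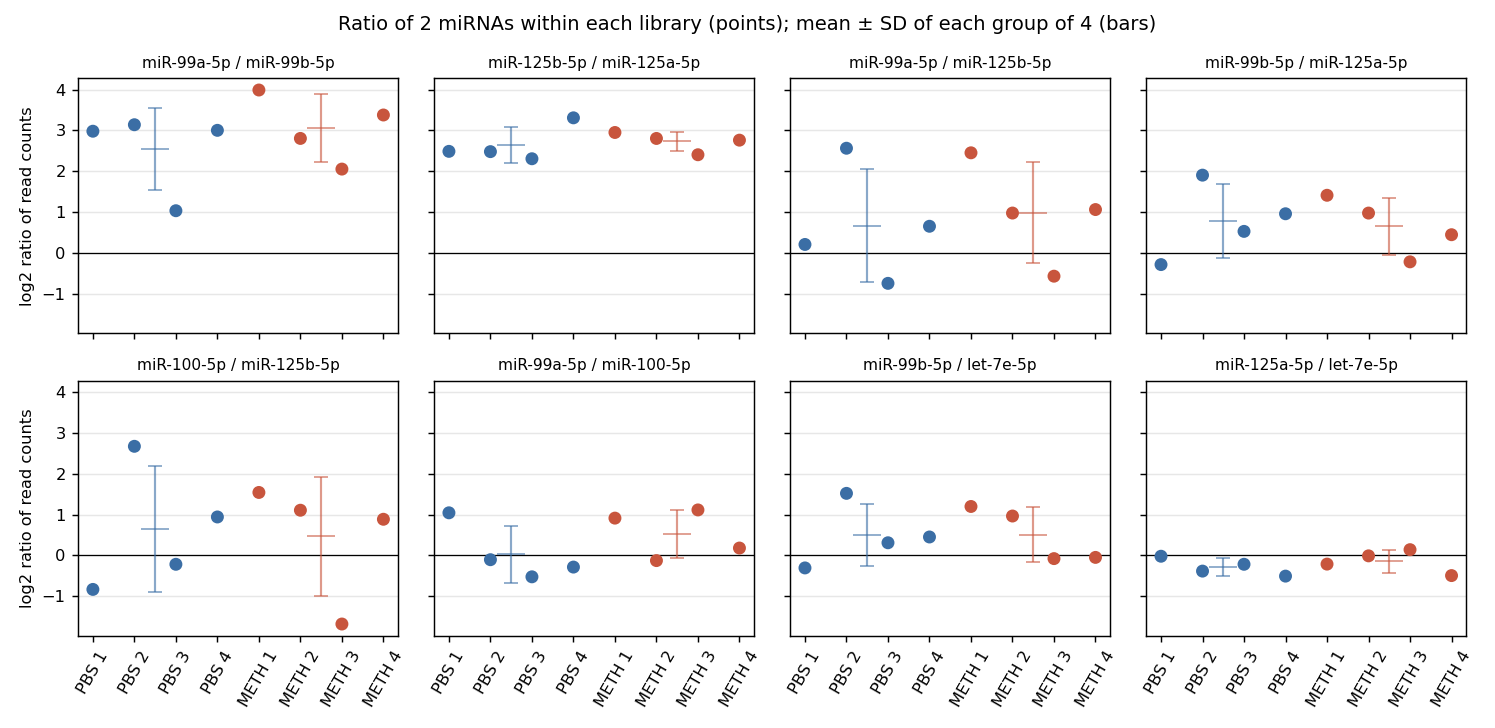
Log2 ratio of the reads of 2 miRNAs within each library (points), with the mean ± SD of the 4 PBS (blue) and the 4 METH libraries (red); the line at 0 marks equal reads. The ratio of miR-125b-5p to miR-125a-5p stays between 2.31 and 3.31, whereas that of miR-100-5p to miR-125b-5p runs from −1.68 to 2.67.

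Ratios of miR-99 to miR-125 ranged more widely than that of the miR-125 paralogs. miR-99b-5p and miR-125a-5p, both from the compact cluster, had ratios of 0.820, 3.74, 1.44 and 1.94 in PBS 1 to 4, against 2.66, 1.97, 0.859 and 1.36 in METH 1 to 4. The ratio was below 1 in PBS 1 and METH 3 and highest in PBS 2, a 4.57-fold range. miR-99a-5p and miR-125b-5p share a cluster in other mammals, but the only MIR125B gene annotated in the tree shrew is listed next to MIR100. Their ratio was 1.15, 5.91, 0.596 and 1.57 in PBS and 5.47, 1.97, 0.673 and 2.09 in METH, a 9.91-fold range. PBS 3 and METH 3 were the libraries in which miR-125b-5p outnumbered miR-99a-5p. These ranges are descriptions of 8 libraries, and the difference between them was not tested.

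The relatives that are not members filled in the clusters, and their ratios were added after the table had been seen. let-7e-5p, annotated between MIR99B and MIR125A, had 6540, 1366, 5973 and 15774 reads in PBS 1 to 4, against 1070, 2076, 4938 and 15399 in METH 1 to 4. The ratio of miR-125a-5p to let-7e-5p stayed between 0.703 and 1.10, a 1.57-fold range. That of miR-99b-5p to let-7e-5p ran from 0.807 to 2.86, a 3.55-fold range. Of the 3 miRNAs of the compact cluster, miR-125a-5p and let-7e-5p thus kept close to a fixed proportion and miR-99b-5p varied more.

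miR-100-5p, annotated next to MIR125B, had 20246, 37133, 21793 and 210640 reads in PBS 1 to 4, against 20721, 30897, 8966 and 136568 in METH 1 to 4. Its ratio to miR-125b-5p ranged 20.4-fold, from 0.312 in METH 3 to 6.37 in PBS 2, and lay below 1 in PBS 1, PBS 3 and METH 3 alone. The ratio of miR-99a-5p to miR-100-5p ran from 0.694 to 2.16, a 3.11-fold range. The widest range was thus between miR-100-5p and miR-125b-5p, whose genes are listed next to each other in the annotation. It was not the only wide range, since miR-99a-5p to miR-125b-5p ranged 9.91-fold. The locus that gave the miR-125b-5p reads was not tested.

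let-7a-5p, from a gene of the miR-100 cluster in other mammals, had 9 to 362 reads, and let-7a-3p had 2 to 857. miR-10b-5p, a more distant relative of the miR-99 family and also on the fibroblast list, had 3 to 41 reads. Of the 10 opposite arms listed, let-7a-3p was the only one matched, so arm use of the members was not analysed here.

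**Figure D3:**
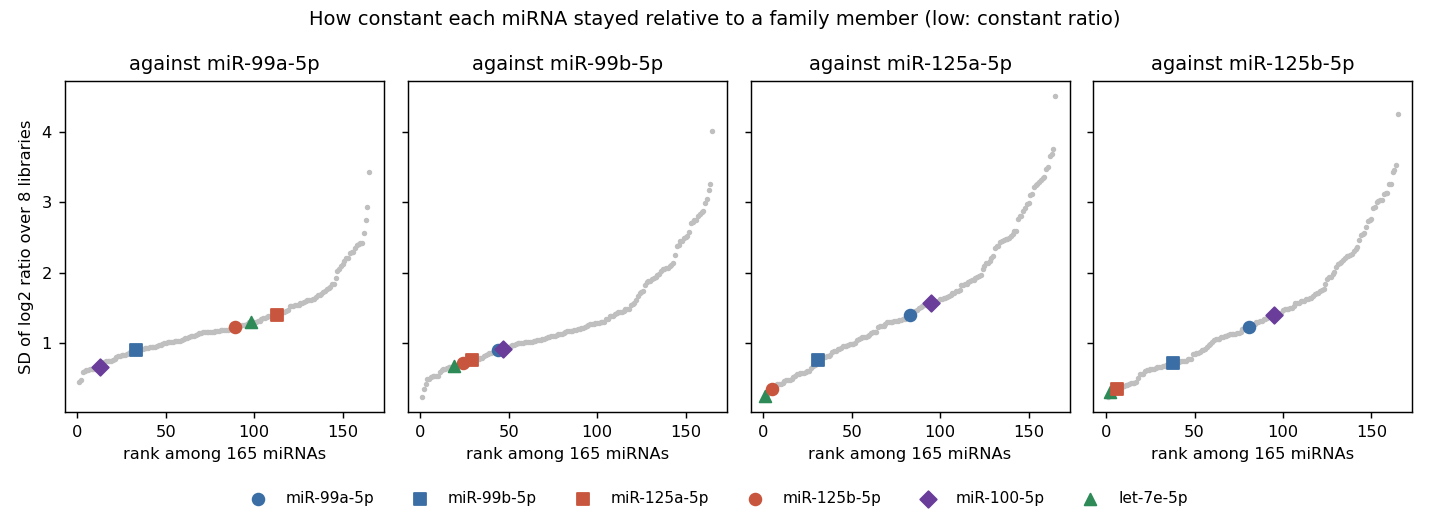
For each member, the SD over the 8 libraries of the log2 ratio to each of the other 165 miRNAs tested (grey points, ordered by rank; a low value means a near-constant ratio), with family and cluster relatives as coloured symbols. let-7e-5p ranks at 1 against miR-125a-5p, and miR-100-5p ranks at 95 against miR-125b-5p.

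Across all 166 miRNAs tested, likeness to a member was measured as the SD of the log2 ratio over the 8 libraries, which share depth and scaling within a library and are given as a description. For miR-125a-5p the steadiest partners were let-7e-5p (SD 0.24), miR-15b-5p (0.26) and miR-423-3p (0.31), with miR-125b-5p at rank 5 of 165 (0.33) and miR-99b-5p at rank 31 (0.76). For miR-125b-5p they were miR-191-5p (0.22), let-7e-5p (0.30) and miR-15b-5p (0.30), with miR-125a-5p at rank 6, miR-99a-5p at rank 81 (1.23) and miR-100-5p at rank 95 (1.39). The median over all 165 was 1.39 for miR-125a-5p and 1.25 for miR-125b-5p. miR-99a-5p and miR-100-5p were therefore near the middle of the ranking against miR-125b-5p.

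The miR-99 members had other nearest miRNAs. For miR-99b-5p these were miR-503 (SD 0.23), miR-652-3p (0.33) and miR-25-3p (0.41), with let-7e-5p at rank 19 (0.66), miR-125b-5p at rank 24 (0.71), miR-125a-5p at rank 29 (0.76) and miR-99a-5p at rank 44 (0.90; median over all 1.16). For miR-99a-5p they were miR-532-5p (0.43) and the predicted miRNAs novel_16 (0.46) and novel_126 (0.58), with miR-100-5p at rank 13 (0.65), miR-99b-5p at rank 33 (0.90) and miR-125b-5p at rank 89 (1.23; median 1.18). miR-99a-5p thus stayed closer to miR-100-5p, of its own family, than to the miR-125b-5p of its expected cluster.

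Between METH and PBS, the question the labels pose, no member passed the test. edgeR called 0 of 4 members and 0 of all 166 miRNAs (0%) at an adjusted p of 0.05, and 0 at an unadjusted p under 0.05. DESeq2 also called 0, with 2 miRNAs at an unadjusted p under 0.05, neither of them a member. Likewise 0 of 4 members, and 0 of 166 miRNAs (0%), had normalised CPM that did not overlap between the groups.

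miR-99a-5p averaged 42707 ± 22000.1 normalised CPM over PBS libraries and 50726 ± 22507 over METH libraries (SD, n = 4). Its log2 fold change of METH over PBS was 0.25 (SE 0.60, 95% interval −1.06 to 1.56, edgeR adjusted p = 0.999), with 2 of 4 METH libraries higher than the mean of PBS. miR-99b-5p averaged 7088 ± 2837 and 6531 ± 4065, with a log2 fold change of −0.12 (SE 0.59, −1.41 to 1.17, edgeR adjusted p = 0.999) and 1 of 4 higher. The estimates lay on opposite sides of 0, at less than their standard errors.

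miR-125b-5p averaged 27819 ± 16103 and 31387 ± 29764, with a log2 fold change of 0.17 (SE 0.72, −1.40 to 1.74, edgeR adjusted p = 0.999), above the PBS mean in METH 3 alone. miR-125a-5p averaged 4833 ± 3390.2 and 5325 ± 6015, with a log2 fold change of 0.14 (SE 0.80, −1.62 to 1.89, edgeR adjusted p = 0.999), again above the PBS mean in METH 3 alone. Without METH 3 these values were −0.82 and −1.14 (edgeR adjusted p = 0.866 for each), and without PBS 1 they were 0.52 and 0.51. Without METH 1 miR-99a-5p was at −0.19 and without PBS 2 at 0.63, and without METH 3 miR-99b-5p was at −0.69 and without METH 4 at 0.18. The median of the 4 members was 0.16, beside 0.21 over all 166 miRNAs.

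For 3 of the 4 members the sign of the estimate depended on the scaling. Against TMM, the median log2 fold change of all miRNAs moved by −0.15 with the size factors of DESeq2, by −0.16 with upper quartiles and by −0.35 with total counts. miR-99b-5p was below 0 on each of these scales. miR-99a-5p was below 0 on total counts alone (−0.029), miR-125b-5p on total counts and upper quartiles, and miR-125a-5p on all but TMM. miR-100-5p had −0.25 (SE 0.56) and let-7e-5p −0.06 (SE 0.72), and neither passed. let-7a-5p, let-7a-3p and miR-10b-5p had −0.17, 0.30 and −0.71 (SE 0.72, 1.15 and 0.82) and did not pass. The value of miR-10b-5p was −1.96 without METH 1 and −0.30 without METH 4.

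**Figure D4:**
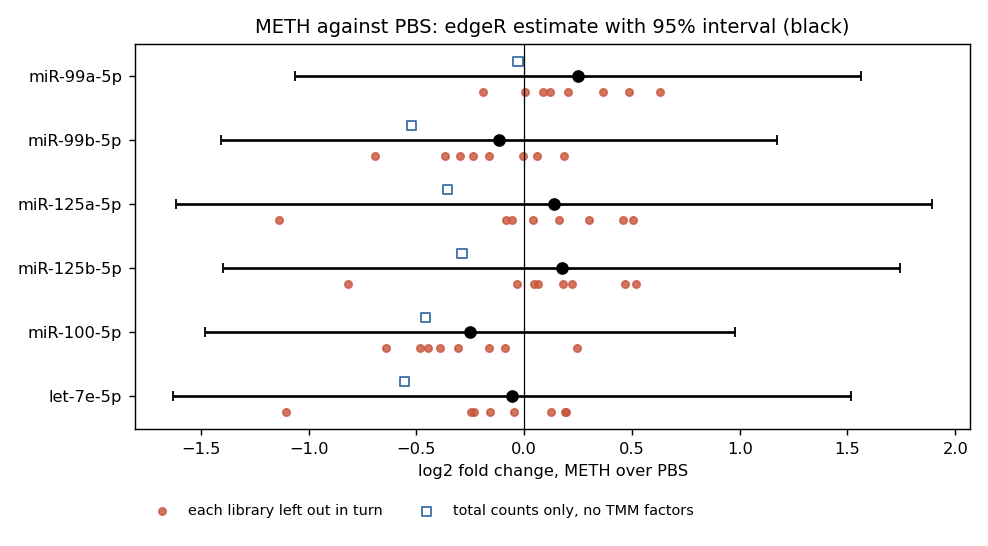
Log2 fold change of METH over PBS from edgeR with its 95% interval (black), the estimates with each library left out in turn (red points) and the estimate on total counts (open squares). Every interval shown includes 0, and miR-125a-5p, miR-125b-5p and let-7e-5p move to −1.14, −0.82 and −1.11 without METH 3.

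The ratios between members, free of the scaling, did not separate METH from PBS either. The log2 ratio of miR-99a-5p to miR-99b-5p was 2.54 ± 1.01 in PBS and 3.06 ± 0.83 in METH (SD, n = 4), a difference of 0.52 (exact two-sided permutation p = 0.486, adjusted p = 0.857 over the 4 ratios), with 3 of 4 METH libraries higher than the mean of PBS. Without PBS 3 the difference was 0.02 and without METH 1 it was 0.21, so its size rested on PBS 3, the lowest library. For miR-125b-5p to miR-125a-5p the values were 2.65 ± 0.45 and 2.73 ± 0.23, a difference of 0.08 (exact permutation p = 0.800, adjusted p = 0.857). Leaving out each library in turn gave differences from −0.03 without PBS 3 to 0.31 without PBS 4.

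Within clusters, miR-99a-5p to miR-125b-5p averaged 0.67 ± 1.39 for PBS and 0.98 ± 1.23 for METH (difference 0.31, exact permutation p = 0.686, adjusted p = 0.857), and at −0.18 without METH 1, −0.16 without PBS 3 and 0.94 without PBS 2. miR-99b-5p to miR-125a-5p was at 0.78 ± 0.91 and 0.65 ± 0.70 (difference −0.12, exact permutation p = 0.857, adjusted p = 0.857). Here the difference was 0.25 without PBS 2, 0.17 without METH 3 and −0.48 without PBS 1. The smallest p these 70 splits can give is 0.0286. The 4 added ratios, to miR-100-5p and let-7e-5p, differed by −0.18 to 0.49 (exact permutation adjusted p of 0.743 or above, over those 4).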

How the data were processed

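Per the file headers, the authors deposited raw read counts and TPM for each miRNA. These deposited TPM equal the count over the library's total, scaled, with no length term (largest difference 4.51e-05). The sources used here do not give the aligner, miRNA reference or genome build. Columns were matched to samples by group name and number.

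METH was compared with PBS with edgeR 4.0.16 in R 4.3.3 (TMM factors, filterByExpr with minimum count 10 and minimum total 15, robust quasi-likelihood F test, Benjamini-Hochberg over 166 miRNAs). The fit was checked on simulated counts. Counts were drawn at a dispersion well below the fitted common value of 0.615 and also at that fitted value. Detection of true changes was required only at the lower one. Detection at the fitted value is not given here, so the check as stated does not show power at the spread of these data. The filter kept all 4 members. DESeq2 1.42.0, other scalings and filters, and left-out libraries were alternatives. Standard errors were derived from F. Log2 ratios used counts with 0.5 added and exact permutation tests (SciPy 1.17.1). No replicates were duplicates (chi-square per degree of freedom of 358 or more). Principal components used log2 CPM with prior count 2.

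The miRNAs named are the 4 members, the listed cluster relatives and opposite arms present, the 3 steadiest partners per member and the cell type markers. miR-21-5p was named after its values were seen. Members and lists were chosen with earlier results of these data known. Same-numbered libraries were not treated as pairs.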

Additional observations from a re-analysis of the deposited data

Results flagged for a closer look

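Of 34 groups of 4 libraries checked for a value far from the other 3 (17 measures in PBS and METH), 6 held one. The rule's rate of about 1 in 20 holds for independent, normally distributed values. Levels were checked as normalised CPM without logs, and the groups share libraries, so that rate cannot be set against the 6. METH 3 was far above the other METH libraries for miR-125a-5p (14319 normalised CPM), miR-125b-5p (75797) and let-7e-5p (13005), and PBS 2 was far above the other PBS libraries for miR-100-5p (73335). PBS 3 was far below the other PBS libraries in the log2 ratio of miR-99a-5p to miR-99b-5p (1.03). METH 1 was far above the other METH libraries for miR-10b-5p (39.8 normalised CPM, from 19 reads). The 3 values of METH 3 come from the same library and move together, so they are not separate observations.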

How the results depend on the processing

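The count of 0 miRNAs called held under all 17 alternatives. For the log2 fold changes the median shifts by scaling are given with the results. miR-99a-5p was −0.029 with total counts. miR-125a-5p was −0.044 with DESeq2, −0.047 with its size factors in edgeR, −0.10 on upper quartile scaling, −0.36 on total counts, −0.11 with no filter, −0.15 with a mean count of at least 10, −0.031 with the replicate block and −0.0096 without the libraries numbered 4. miR-125b-5p was −0.058 on upper quartile scaling, −0.29 on total counts, −0.065 with no filter and −0.070 with a mean count of at least 10. Without PBS 1, PBS 3 and METH 3, let-7e-5p was 0.044, let-7a-3p −0.21, and miR-99a-5p, miR-99b-5p, miR-125a-5p and miR-125b-5p were 0.13, −0.24, 0.28 and 0.17. With 1 library left out in turn, the ranges were −0.19 to 0.63 for miR-99a-5p, −0.69 to 0.18 for miR-99b-5p, −1.14 to 0.51 for miR-125a-5p, −0.82 to 0.52 for miR-125b-5p, −0.64 to 0.24 for miR-100-5p, −1.11 to 0.19 for let-7e-5p, −0.53 to 0.42 for let-7a-5p, −0.14 to 1.17 for let-7a-3p and −1.96 to −0.30 for miR-10b-5p.

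For the ratios, the METH minus PBS difference without PBS 1, PBS 3 and METH 3 was −0.056 for miR-125b-5p to miR-125a-5p, −0.11 for miR-99a-5p to miR-125b-5p and −0.28 for miR-99b-5p to let-7e-5p, and that of miR-99b-5p to miR-125a-5p was 0.0075 without the libraries numbered 4. With medians in place of means, miR-100-5p to miR-125b-5p gave 0.63 and miR-99a-5p to miR-99b-5p 0.10. With 1 library left out in turn, the ranges were 0.02 to 0.85 for miR-99a-5p to miR-99b-5p, −0.029 to 0.31 for miR-125b-5p to miR-125a-5p, −0.18 to 0.94 for miR-99a-5p to miR-125b-5p, −0.48 to 0.25 for miR-99b-5p to miR-125a-5p, −0.67 to 0.54 for miR-100-5p to miR-125b-5p and −0.25 to 0.36 for miR-99b-5p to let-7e-5p. The higher level of miR-99a-5p and of miR-125b-5p over the paralog held its direction throughout (2.63 to 3.05 and 2.60 to 2.74 with 1 library left out), and without PBS 1, PBS 3 and METH 3 the values were 3.26 and 2.86 with 5 libraries, too few for an exact p under 0.0625. The causes of these changes were not tested.

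The numbers 1 to 4 are shared by the groups, and deviations from the group means correlated at −0.25, 0.54, 0.77 and 0.89 for libraries 1, 2, 3 and 4. PBS 2, PBS 3 and PBS 4 each correlated best with the METH library of the same number, but PBS 1 did so with METH 3, at 0.77. The libraries numbered 4 were also the deepest in both groups. No label says that a number marks a shared culture, animal or day, so the numbers were not taken to pair the samples. With the replicate block, edgeR called 0 miRNAs, and the ratio differences of 0.52, 0.08, 0.31 and −0.12 were the same, with 0.125 as the smallest exact p that 4 pairs can give. The members had 922 reads or more in each library, and the part of depth in their levels was not tested.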
